A study of Mus musculus with 8 samples.

Results

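The transcripts described here are those that the array design lists under a clone name alone and that separated oviducts of neonatally Gen-treated mice from control oviducts. They were chosen by 4 criteria: a probe name that was a bare sequence accession or a RIKEN clone name ending in Rik, a signal that the scanner software marked as well above background on every array of a group (either one), no overlap between the signals of the groups, and group means at least 2-fold apart. Of 11165 unnamed probes among 41174 noncontrol probes, 5959 passed the filter on detection, and 139 probes of 128 names met every criterion. Of these members, 103 were higher in the Gen group (95 names), called raised below, and 36 were lower (33 names), called lowered. The difference between the groups was used to choose them, so their differences are given as a description, with no test.

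The study asked how exposure of newborn mice to genistein (Gen), a soy phytoestrogen, alters the adult oviduct in early pregnancy. Female CD-1 mice were injected subcutaneously from PND1 to PND5 with corn oil (control, n = 4) or with Gen at 50 mg/kg/day in corn oil (Gen, n = 4). At 6–8 weeks of age the mice of both groups were superovulated and mated, and oviducts were collected 48 hr after hCG, on pregnancy day 2 (GD2), and freed of embryos. Each array measured 1 of 4 independent biological replicates per group with 1 dye (Cy3), and the methods state for adult oviducts in RT-PCR, but do not restate for the arrays, that a replicate was both oviducts of 1 mouse. The 4 control arrays were on 1 slide with 1 scan time and the 4 Gen arrays on another, so treatment and slide cannot be told apart. Signals are Agilent processed signals after scaling each array to a common 75th percentile, and differences are Gen minus control on the log2 scale, with the SD over 4 arrays.

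A probe with a clone name stands for a cDNA that had been sequenced but not yet given a gene symbol when the array was designed. Such cDNAs come from coding genes named later, from long noncoding RNAs, from alternative ends of known genes, and from rearranged immunoglobulin chains, each antibody clone having its own variable region and hence its own database entry. Long noncoding RNAs often lie next to or antisense to genes of developmental transcription factors. The oviduct itself is a tube of ciliated and secretory epithelium within stroma and smooth muscle, beside the ovary, and plasma cells lie in its mucosa.

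Probe sequences are shown for the members that had no coding gene assigned and carry the main contrasts, since the sequence is what identifies them. Each is the 60-base probe of the array, 5′ to 3′, in lower case, and capitals mark the canonical polyadenylation signal AATAAA where a probe held it. The first is AK035470, a cDNA from adult male urinary bladder at chr12:70997656-70997715, plus strand (all positions are those of the array design, mm7, NCBI build 35).
AK035470: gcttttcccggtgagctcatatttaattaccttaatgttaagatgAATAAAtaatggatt
The next 3 probes, on the plus strand of chromosome 5, belong to raised cDNAs from embryonic testis, at chr5:24960219-24960278, chr5:24960629-24960688 and, 83.1 kb further on, chr5:25043820-25043879.
E330037M01Rik, first probe: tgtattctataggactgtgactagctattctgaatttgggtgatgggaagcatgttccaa
E330037M01Rik, second probe: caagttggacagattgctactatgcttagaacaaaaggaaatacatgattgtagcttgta
AK031269: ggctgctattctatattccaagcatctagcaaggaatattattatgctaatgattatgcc
The last 4 belong to lowered transcripts that RefSeq lists as long noncoding RNAs, at chr10:102856798-102856857 (plus strand), chr3:21492892-21492951 (minus strand), chr11:84605592-84605651 (plus strand) and chr3:34485226-34485285 (plus strand).
6430590A10Rik: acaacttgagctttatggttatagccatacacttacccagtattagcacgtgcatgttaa
7530428D23Rik: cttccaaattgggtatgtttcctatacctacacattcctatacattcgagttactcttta
1500016L03Rik (Lhx1os): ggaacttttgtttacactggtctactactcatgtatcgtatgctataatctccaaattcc
B230215L15Rik (Sox2ot): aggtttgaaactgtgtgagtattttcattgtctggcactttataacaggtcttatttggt

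Raised members were more numerous and dimmer than lowered members, but their excess in number depended on the filter on detection. With detection required on all 8 arrays, 31 raised and 32 lowered members were left. The detection limit was lower on the Gen arrays, as given below, so dim probes could pass more easily through that group. The raised members were 1.73% of the unnamed probes that passed detection and the lowered members 0.604%, against 1.41% raised and 0.782% lowered among all 28915 probes that passed detection, so neither share stood far from that of all probes. The median difference was 1.47 among raised members (range 1.00 to 4.61) and -1.44 among lowered members, whose sizes ranged from 1.02 to 4.15. In the raised set 46 probes had a RIKEN name and 57 an accession, and in the lowered set 27 and 9. The members just inside the fold threshold were E430004N04Rik (1.00) and 4930465K10Rik (1.01), and the probes just outside it were A930004K21Rik (0.999, mean signals 536 and 1072) and E230016K23Rik (-0.997, mean signals 614 and 307).

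**Figure D1:**
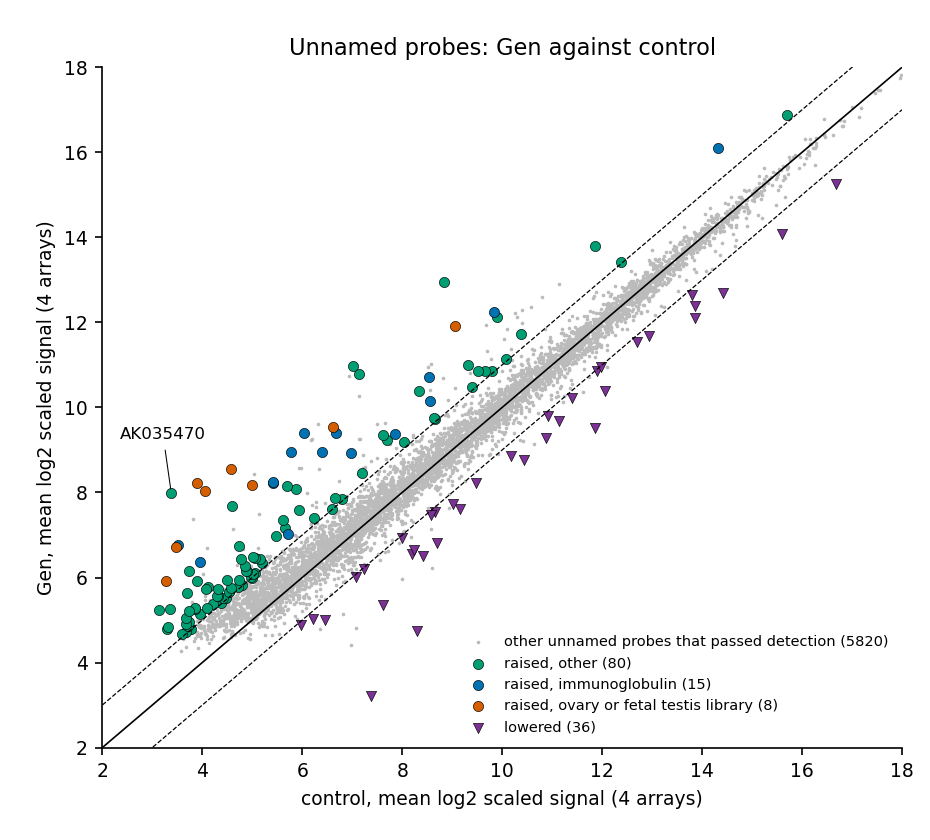
Mean log2 scaled signal of unnamed probes that passed detection, control on the x axis and Gen on the y axis (4 arrays each), with members in colour by kind, the solid line at equality and dashed lines at 2-fold. Most raised members lie at the dim end and include 15 immunoglobulin probes and 8 probes from ovary or fetal testis libraries, while most lowered members are brighter.

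Of the 103 raised members, 31 were well above background on all 4 control arrays, 39 on 1 to 3 and 33 on none, and 48 had mean signals under 100 in both groups. Of the 36 lowered members, 32 were well above background on all 4 Gen arrays, 3 on 1 to 3 and 1 on none, and 3 had mean signals under 100 in both groups. The lowest signal that counted as well above background was 28.5 to 65.9 on the control arrays and 14.5 to 20.9 on the Gen arrays, and the median signal of 7909 probes never well above background was 6.56 to 14.7 and 3.34 to 5.19. For a probe well above background on no array of a group, the fold is given as a bound, the bright group's mean over the dim group's mean of, on each array, the higher of the lowest well-above-background signal and the probe's own. That bound was over 1 for 17 of the 33 such raised members and over 2 for 6 of them. The number of members depended on the dim signals: with normexp background correction 36 raised and 28 lowered probes met the criteria, 34 and 26 of them members, and with signals under 65.9 set to that floor 50 and 30 did, all of them members. Without scaling between arrays the counts were 172 raised and 10 lowered. Fewer arrays make a lack of overlap easier to meet, but the counts rose unevenly. The raised count was 161, 120, 114 and 233 without control replicates 1, 2, 3 and 4, and 158 without Gen replicate 4. Without control replicate 4 the probes with other names that were raised numbered 387, against 306 with all arrays. The lowered count was 56 without control replicate 1 and 61 without Gen replicate 3. The reason for the rise without control replicate 4 was not tested.

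AK035470 had the largest difference of the 139 members. Its signals were 10.1, 10.1, 16.2 and 7.09 on the control arrays, none well above background, and 203, 318, 223 and 288 on the Gen arrays. All 4 Gen arrays lay far above the control arrays and close to each other, with SDs of 0.49 and 0.30. The log2 difference was 4.61, given as at least 6.37-fold higher.

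Members from ovary and fetal testis cDNA libraries were the raised set with the largest differences. Of 54 raised members with a RIKEN source library, 8 (14.8%) came from pregnant ovary or embryonic testis, against 103 of 2521 unnamed probes that passed detection (4.09%) and 0 of 10 lowered members. The 8 probes stood for 7 names, with 2 probes of a single clone and 2 probes at the Akr1cl locus. The adult male testis library, not counted among these, held 4 raised members, 7.41% of those with a source library against 9.76% of the unnamed probes that passed detection. The differences of the 8 ran from 2.65 to 4.35 with a median of 3.20, against medians of 0.31 over the 103 probes of those libraries, 2.40 over the immunoglobulin members and 1.28 over the other raised members. On all 8 probes Gen 1 and Gen 2 were both higher than Gen 3 and Gen 4, and the highest control array was control 1 or control 3.

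AK087742 had the largest difference of this set. Its signals were 40.6, 7.04, 28.3 and 5.91 on the control arrays and 818, 485, 195 and 106 on the Gen arrays, a difference of 4.35 and at least 7.53-fold higher. It lay 1.48 kb from the first of 3 probes for 4921521F21Rik, now Akr1cl, on the same strand of chromosome 1. Akr1cl belongs to the aldo-keto reductases, which reduce steroids and prostaglandins. The brightest Akr1cl probe read 255, 57.8, 544 and 34.3 in controls and 3916, 4691, 1094 and 795 in the Gen group (3.96, 15.5-fold), and the others differed by 3.66 and 3.99. The criteria fixed in advance that the groups would not overlap on these 4 probes. The spread within each group was wide, with SDs of 1.26 to 1.85.

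Cyp11a1 and Lhcgr lay next to members of the same set. AK077945, from embryonic testis, lay 0.439 kb from a probe for Cyp11a1, the enzyme that starts steroid synthesis from cholesterol, on the same strand. AK077945 read 8.83, 7.43, 21.4 and 6.27 in controls and 165, 58.7, 35.7 and 39.4 in the Gen group (2.65, at least 1.52-fold). The Cyp11a1 probe read 238, 354, 3903 and 271 in controls and 23785, 21029, 4444 and 8710 in the Gen group (4.43), with control 3 close to the lowest Gen array. A further Cyp11a1 probe, 0.67 kb from AK077945, differed by 4.35. Its control 3 at 3705 overlapped Gen 3 at 3698, so it did not meet the criteria. AK054542, from pregnant ovary, lay 3.81 kb from Lhcgr, the receptor for luteinizing hormone, on the same strand. It read 11.8, 31.6, 146 and 5.9 in controls and 615, 989, 192 and 172 in the Gen group (3.99, 15.8-fold), and control 3 again stood above the other controls. The Lhcgr probe differed by 3.16, but control 3 at 40.7 overlapped Gen 3 at 34.1, so it did not meet the criteria.

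For the embryonic testis cDNAs on chromosome 5, Gen 1 and Gen 2 were again the higher Gen arrays, while control 1 was the highest control array. The second E330037M01Rik probe read 155, 68.7, 109 and 78.6 in controls and 1118, 1787, 577 and 265 in the Gen group (2.93, 7.61-fold), and the first differed by 3.17. AK031269 read 29.8, 6.79, 13.3 and 5.8 in controls and 126, 274, 68.3 and 50.7 in the Gen group (3.22, at least 2.63-fold). The nearest detected named probe to E330037M01Rik, on the opposite strand, differed by -0.23. D630042P16Rik, now Ssu2, from pregnant ovary, read 431, 349, 1506 and 353 in controls and 10189, 7655, 1557 and 1783 in the Gen group (2.85, 7.22-fold), so that control 3 came within a few percent of Gen 3.

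Other raised members with a role in ovary or oocytes had no gonad library in their description. 4930583H14Rik, now Mgarp, a mitochondrial protein of steroidogenic cells, read 731, 171, 2029 and 170 in controls and 14222, 14052, 4024 and 5009 in the Gen group (4.13, 17.5-fold). BC052883, now Wee2, a kinase that holds oocytes in meiotic arrest, read 6.08 to 13.8 in controls and 22.4 to 85.6 in the Gen group (2.10), with no bound over 1. C87977, matched to Pramel29 of a multigene family whose members can share sequence, read 74.0, 11.4, 67.0 and 6.02 in controls and 217, 1026, 77.9 and 103 in the Gen group (3.09, 8.50-fold). On this probe control 1 at 74.0 nearly reached Gen 3 at 77.9.

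Markers of ovarian cells and oocytes moved with these members. Of 11 genes on a list for ovarian steroidogenic and granulosa cells, 9 were higher in the Gen mean, with summed signals of 6384 to 31660 on control arrays and 35377 to 144092 on Gen arrays. Cyp11a1, Hsd3b1 and Lhcgr differed by 4.43, 4.18 and 3.16, whereas Cyp17a1 (-0.02), Cyp19a1 (-0.25) and Foxl2 (0.02) were near 0. For Lhcgr and Amh no control array was well above background, and no marker was at 0. All 9 detected genes of an oocyte and preimplantation embryo list were higher in the Gen mean, with summed signals of 566 to 5538 and 5291 to 34663. Zscan4c, also on that list, did not pass the filter on detection and was lower in the Gen mean (-0.67). It was well above background on 2 control and 3 Gen arrays. The part of these cells in the members' differences was not tested, and in whole oviducts fewer cells of a type and less RNA per cell cannot be told apart.

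Immunoglobulin probes made up 15 of the raised members and 0 of the lowered members. Antibodies are built from a heavy and a light chain, and plasma cells secrete them. Of the 15, 10 were described as immunoglobulin and 5 lay within 100 kb of a probe so described. On chromosome 6, where the kappa light chain genes are, 12 lay between 67837640 and 70744399, and 3 lay on chromosome 12 between 110949903 and 111146981, where the heavy chain genes are. Their differences ran from 1.29 to 3.36 with a median of 2.40. Of 27 unnamed probes that passed detection and were described as immunoglobulin, 26 were higher in the Gen mean (median 1.89). These 27 include the 10 members so described, which were chosen by their difference, so the count and median partly restate that choice. Over all unnamed probes that passed detection the median was 0.09, and the share of them that were higher was not counted.

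AF152371, the brightest kappa member, read 17813, 41829, 16513 and 14265 in controls and 63413, 53923, 82019 and 86090 in the Gen group (1.78 with SDs of 0.70 and 0.32). M19902, a rearranged gamma heavy chain, read 810, 2581, 493 and 670 in controls and 4392, 12261, 3197 and 3158 in the Gen group (2.40, 5.30-fold). Control 2 was the highest control array on both probes and on 12 of the 15 in all, and Gen 1 and Gen 2 were both above Gen 3 and Gen 4 on 1 of the 15. BC031498 read 294 to 530 in controls and 854 to 2729 in the Gen group (2.18). BC002112 had the largest difference of the kappa members (3.36), with 29.2, 218, 38.2 and 77.1 in controls and 224, 873, 743 and 1426 in the Gen group. BG966302, well above background on no control array, read 8.64 to 15.8 and 69.5 to 177 (3.24, at least 2.72-fold), and D17387, on chromosome 12, differed by 3.17. L18942 read 69.9 to 240 in controls and 486 to 831 in the Gen group (2.71), and AY172399, on chromosome 12, 62.2 to 256 and 381 to 723 (1.93). The order of arrays within the Gen group was thus another one than for the ovary and testis library members, a difference that was not tested.

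Since these probes come from related variable regions, their sequences were compared with each other. Among the 105 pairs the longest shared run was 15 bases, between BC108385 and BC080787, and the next was 14 bases, between AF124721 and BC002112. Capitals mark the shared run in each pair, all on the plus strand of chromosome 6, at chr6:70690221-70690280, chr6:70625849-70625908, chr6:68026456-68026508 and chr6:70744350-70744399 in turn (the design places only a stretch of the last 2 probes on the genome).
BC108385: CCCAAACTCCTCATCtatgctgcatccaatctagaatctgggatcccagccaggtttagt
BC080787: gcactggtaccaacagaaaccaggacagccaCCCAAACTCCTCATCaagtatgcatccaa
AF124721: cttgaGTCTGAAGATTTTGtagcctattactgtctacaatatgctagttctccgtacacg
BC002112: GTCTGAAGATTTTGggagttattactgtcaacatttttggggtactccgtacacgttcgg
These 4 members differed by 1.52, 1.59, 2.84 and 3.36. A probe can also bind transcripts of other variable regions, which the comparison of probes alone does not measure, so each is uncertain as a measure of a single clone.

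Control 2 was the highest control array for 11 of the 80 raised members outside the immunoglobulin and the ovary and testis library sets, against 33 for control 4, 21 for control 3 and 15 for control 1. The 11 included probes of BC048546 (A2ml1), 5330417C22Rik (Elapor1), A930031D07Rik (Mfsd4a), 9230110I02Rik and 2310001H17Rik, as well as 2010001M09Rik and 2010309G21Rik. A high control 2 was thus not particular to genes of antibody-forming cells. 2010001M09Rik, now Mzb1, a chaperone of antibody assembly in B and plasma cells, read 567 to 1044 in controls and 1688 to 2043 in the Gen group (1.34, 2.54-fold). 2010309G21Rik, a small intestine cDNA on chromosome 16 with no match in RefSeq, read 557, 1622, 1174 and 778 in controls and 3333, 5312, 4564 and 4783 in the Gen group (2.22, 4.65-fold). The immunoglobulin set held 0 members of the lambda light chain, on chromosome 16. Whether 2010309G21Rik is an immunoglobulin transcript was not tested. All 11 genes of a B cell and plasma cell list, of which Mzb1 is one, were higher in the Gen mean (median difference 1.26), with summed signals of 22742 to 43187 on control arrays and 61427 to 88470 on Gen arrays. All 11 were well above background on at least 1 control array and none was at 0. Within the Gen group the mean of this list was highest on Gen 2 and lowest on Gen 4, whereas the mean of the immunoglobulin members was highest on Gen 4 and lowest on Gen 1. The T cell and natural killer cell list had 10 of 11 genes higher (median 0.63) and the macrophage list 8 of 9 (0.37). The part of these cells in the members' differences was not tested.

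**Figure D2:**
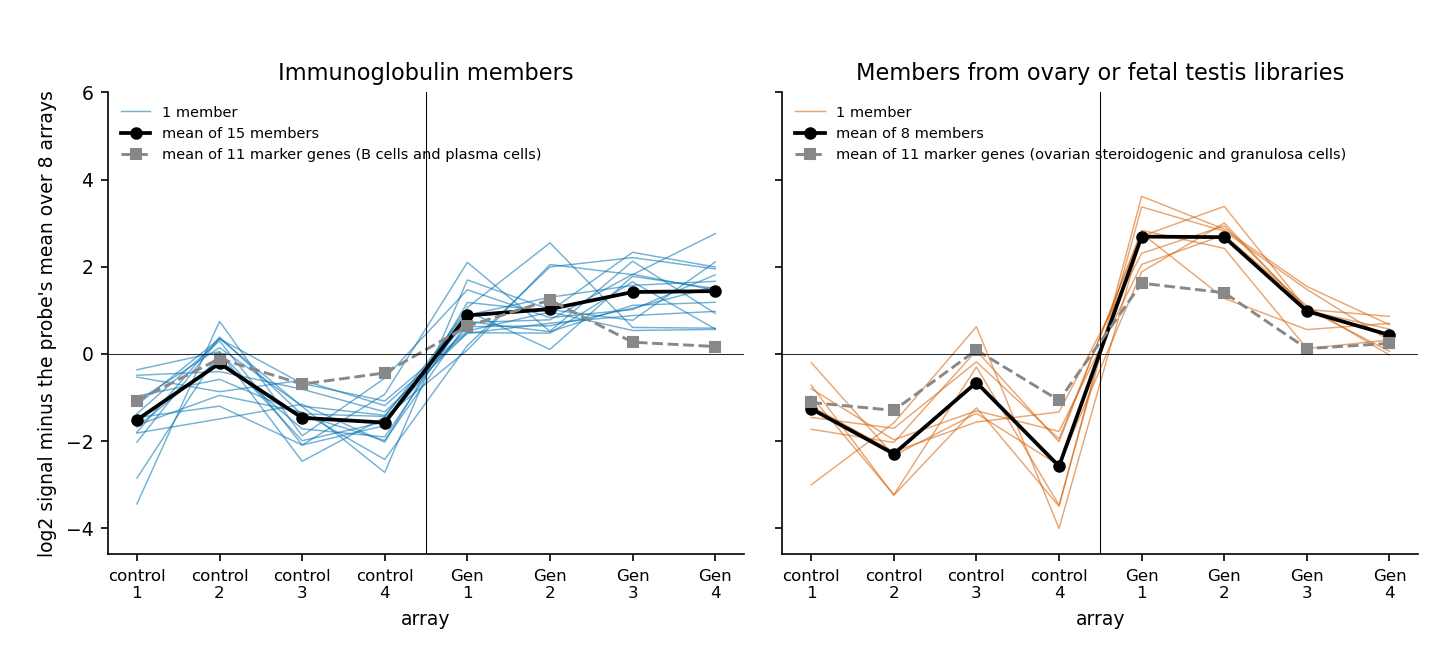
Log2 signal of each raised member minus its mean over the 8 arrays, for 15 immunoglobulin members (left) and 8 members from ovary or fetal testis libraries (right), with their mean in black and the mean of the 11 marker genes in grey. The ovary and testis library members are highest on Gen 1 and Gen 2 and, among controls, on control 3, while control 2 is the highest control for the immunoglobulin members.

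The remaining raised members with a current gene symbol included transporters, epithelial proteins and interferon-induced genes. Both probes for 1300013J15Rik, now Slc47a1, an exporter of organic cations, were members: the brighter read 78.0, 32.1, 109 and 26.5 in controls and 540, 437, 166 and 168 in the Gen group (2.46), and the dimmer differed by 2.42. As with the ovary and testis library members, Gen 1 and Gen 2 were the higher Gen arrays. A930031D07Rik, now Mfsd4a, a transporter of the major facilitator superfamily, read 381, 247, 501 and 230 in controls and 2142, 1651, 665 and 1402 in the Gen group (2.06, 4.18-fold). Its second member probe differed by 1.65 and its remaining probe by 0.38. 5330417C22Rik, now Elapor1, a membrane protein of endosomes and lysosomes, read 2106 to 5422 in controls and 11873 to 19934 in the Gen group (1.93, 3.80-fold), and its second probe differed by 1.69.

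A130092J06Rik, now Fam78a, read 174 to 239 in controls and 1172, 1148, 382 and 363 in the Gen group (1.75, 3.37-fold), its Gen arrays splitting in the same way as those of Slc47a1. 9430071P14Rik, now Svopl, a transporter-like membrane protein, read 43.6 to 54.6 in controls and 128 to 233 in the Gen group (1.74, 3.34-fold). Its other probe, not a member, differed by 1.13. 1700081D17Rik, now Pebp4, of the phosphatidylethanolamine-binding proteins, differed by 1.95 (at least 1.26-fold) on its dimmer member probe and by 1.18 on its brighter one. Among epithelial proteins, BC031593, now Krt79, a type II keratin, read 48.3 to 88.4 in controls and 157, 472, 119 and 152 in the Gen group (1.64, 3.12-fold). BC048546, now A2ml1, a protease inhibitor of the alpha-2-macroglobulin family, was among the brightest members, with 46367 to 66957 in controls and 85027 to 198069 in the Gen group (1.16, 2.24-fold). A stratified squamous epithelium list, which holds neither gene, had 3 of 8 detected genes higher in the Gen mean (median difference -0.06). AI447904, now Ifi209, an interferon-activated gene, differed by 1.07 (at least 1.68-fold), AU018829, matched to Gm16367, by 1.42 (at least 1.88-fold), and E430004N04Rik, now Themis, a T cell signalling gene, by 1.00.

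AK037052 lay beside a named gene that met the same criteria, and 6330509M05Rik beside a further probe of its own current gene that met them. AK037052, a cDNA from adult female vagina on chromosome 19, read 31.3, 28.9, 27.7 and 19.9 in controls and 64.3, 237, 109 and 80.8 in the Gen group (2.02, at least 2.70-fold). It lay 3.84 kb on the same strand from Slc16a12, a transporter of the monocarboxylate family, which differed by 1.48 with 217 to 373 in controls and 464 to 1625 in the Gen group. Gen 2 was the highest array for both. 6330509M05Rik, now named Slc9a7, an ion exchanger of the Golgi, read 254, 265, 280 and 256 in controls and 510, 860, 517 and 510 in the Gen group (1.15, 2.21-fold). The probe that the design lists as Slc9a7 differed by 1.28. The nearest detected named probe, for Chst7 on the opposite strand, differed by -0.30 and did not meet the criteria.

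The lowered members with the largest differences were the long noncoding RNAs 6430590A10Rik and 7530428D23Rik. 6430590A10Rik, a neonatal cerebellum cDNA on chromosome 10, read 133, 62.2, 439 and 207 in controls and 15.2, 8.61, 6.15 and 9.5 in the Gen group, where no array was well above background (-4.15, at least 9.84-fold lower in the Gen group). 7530428D23Rik, a neonatal cortex cDNA, read 156, 355, 480 and 362 in controls and 52.0, 11.3, 73.9 and 11.6 in the Gen group, where 2 arrays were well above background (-3.55, 11.7-fold). The groups were far apart on both, though the Gen arrays of 7530428D23Rik fell into a higher and a lower pair.

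1500016L03Rik, now Lhx1os, a noncoding RNA beside the LIM homeobox gene Lhx1, read 140 to 241 in controls and 122, 24.1, 43.4 and 22.4 in the Gen group (-2.25). Lhx1 itself, 16.04 kb away on the opposite strand, differed by -0.50 with 94.1 to 120 and 59.9 to 100, and its groups overlapped. B230215L15Rik, now Sox2ot, the noncoding transcript within which the Sox2 gene lies, read 929 to 1616 in controls and 880, 136, 618 and 636 in the Gen group (-1.32, 2.50-fold). Sox2, a transcription factor of stem and epithelial cells, had a probe 25.9 kb away on the same strand with signals of 6.69 to 15.1 in controls, none well above background, and 24.9 to 80.9 in the Gen group, and no fold is given since its bound was 0.894. 9530059O14Rik, a noncoding RNA found in urinary bladder, read 233 to 350 in controls and 209, 40.1, 142 and 65.0 in the Gen group (-1.64).

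The coding genes among the lowered members were mostly measured well above background on every array. BC037703, now Mab21l3, read 2157 to 5771 in controls and 1090, 208, 1590 and 808 in the Gen group (-2.34, 5.07-fold), and its other probe differed by -2.36. 9230116B18Rik, now Acbd7, an acyl-CoA-binding protein, read 8996 to 18498 in controls and 5449, 1330, 5991 and 8550 in the Gen group (-1.76, 3.39-fold). Its neighbour Olah, an enzyme that releases fatty acids from fatty acid synthase, lay 1.37 kb away on the opposite strand and differed by -2.84, with 971 to 2515 in controls and 102 to 414 in the Gen group. Gen 2 was the lowest array for all 3 genes.

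BC005655, matched to Dcpp1 and Dcpp2, near-identical genes for a secreted protein of salivary gland and oviduct, had 2 member probes, and signals of the paralogs cannot be told apart. The probe for Dcpp1 read 17396 to 28323 in controls and 16148, 1718, 8948 and 7505 in the Gen group (-1.74, 3.33-fold), and the other differed by -1.52. 1500015O10Rik, now Ecrg4, a secreted peptide precursor, was the brightest lowered member, with 122990, 123998, 127561 and 63452 in controls and 46632, 21216, 44737 and 52542 in the Gen group (-1.43, 2.70-fold). Control 4 came close to Gen 4 on this probe. AU042651, now Slc25a48, a mitochondrial carrier, read 3218 to 6358 in controls and 1050 to 1870 in the Gen group (-1.66, 3.17-fold).

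B230362M20Rik, now Gabrg3, a GABA receptor subunit, read 242 to 569 in controls and 201, 45.1, 87.4 and 204 in the Gen group (-1.87), and 5730507A09Rik, now Fam189a1, read 277 to 443 and 63.5 to 135 (-1.90). 2610034M16Rik, now Pdzph1, differed by -1.59, and the unmatched BF472673 and AK163997 by -1.68 and -1.61. Gen 2 was the lowest Gen array for 24 of the 36 lowered members, and the highest for 3. Of the marker lists, the ciliated epithelium list had 6 of 10 genes higher in the Gen mean (median difference 0.02, summed signals 226906 to 289296 and 189310 to 313100), with its lowest list mean on Gen 2, and the smooth muscle list 0 of 8 (median -0.26, 1086649 to 1457413 and 902016 to 1216527). The cardiac muscle list had 2 of 7 detected genes higher (median -0.52, 88498 to 139589 and 57553 to 89837), the lowest median of the marker lists, and its list mean was lower on each Gen array than on any control array. Their part in the lowered members was not tested.

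**Figure D3:**
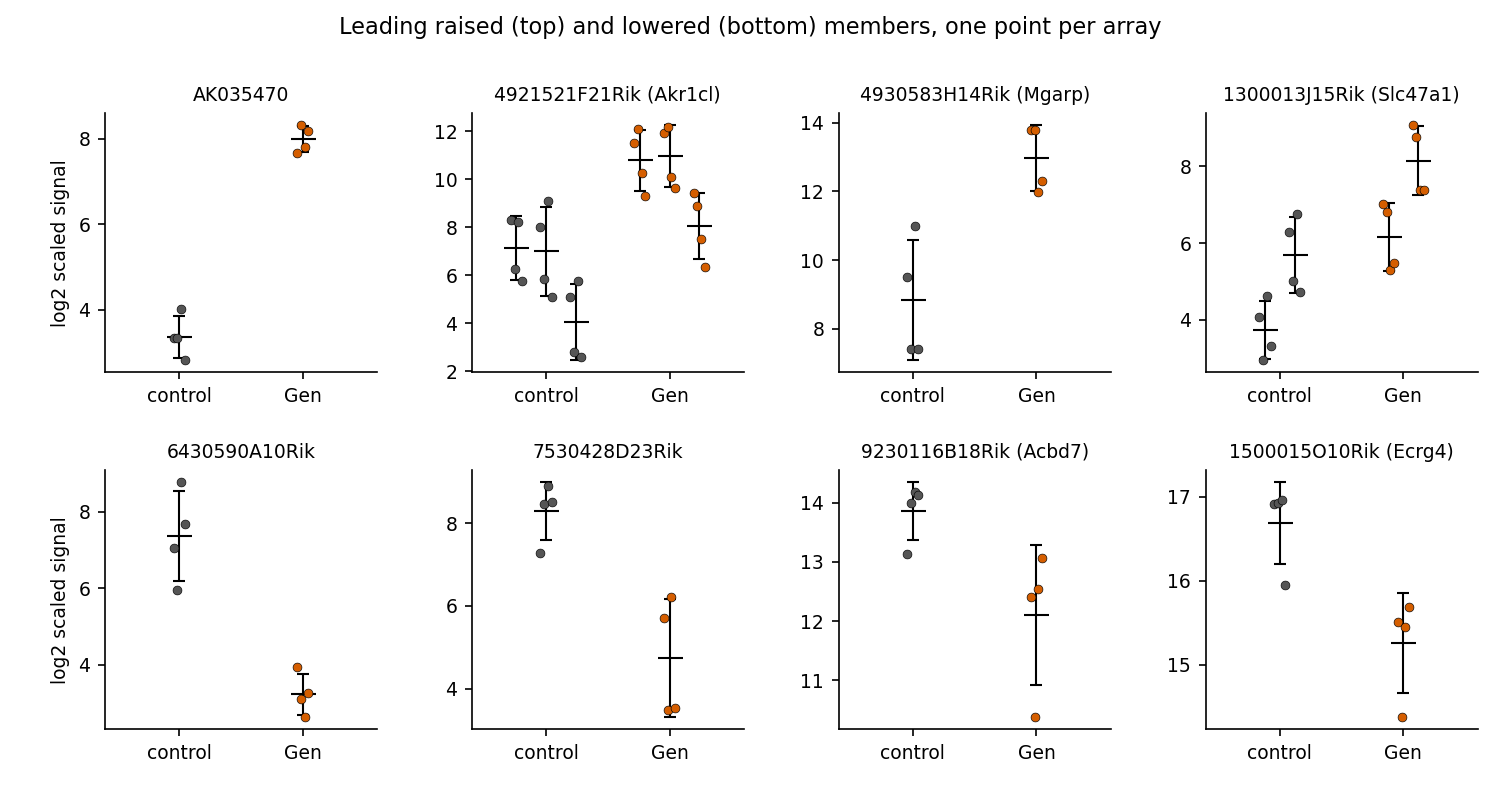
Log2 scaled signal on each array for 4 raised (top) and 4 lowered (bottom) names, 1 point per array, with the mean and SD over 4 arrays in black. Names with several member probes show 1 column of points per probe (3 for Akr1cl and 2 for Slc47a1). Gen and control columns do not overlap because the criteria required it.

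The nearest probe with another kind of name shared the direction of many members. Of 29 raised members (AK035470 not included) with such a probe, detected, within 10 kb, 24 had a neighbour higher in the Gen mean, 8 of them meeting the same criteria, and the median neighbour differed by 0.32. Of 10 lowered members, 8 had a lower neighbour, 1 of them (Olah) meeting the criteria, and the median was -0.35. Over all probes that passed detection the median difference was 0.02. Immunoglobulin members held 6 of those 8 criteria-meeting neighbours, which were 4 distinct probes inside the antibody loci. Of the 22 other raised members 17 had a higher neighbour, 2 of them (the nearer Cyp11a1 probe and Slc16a12) meeting the criteria, and the median was 0.24. Some neighbours carried only a transcript or cluster identifier. These counts are of members, and some members shared a neighbour probe, also outside the antibody loci and among the lowered members. For D030022P07Rik the neighbour, Tbc1d23, was a probe of its own current gene. The share of all detected probes that were higher in the Gen mean was not counted, so the counts have no background share beside them.

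**Figure D4:**
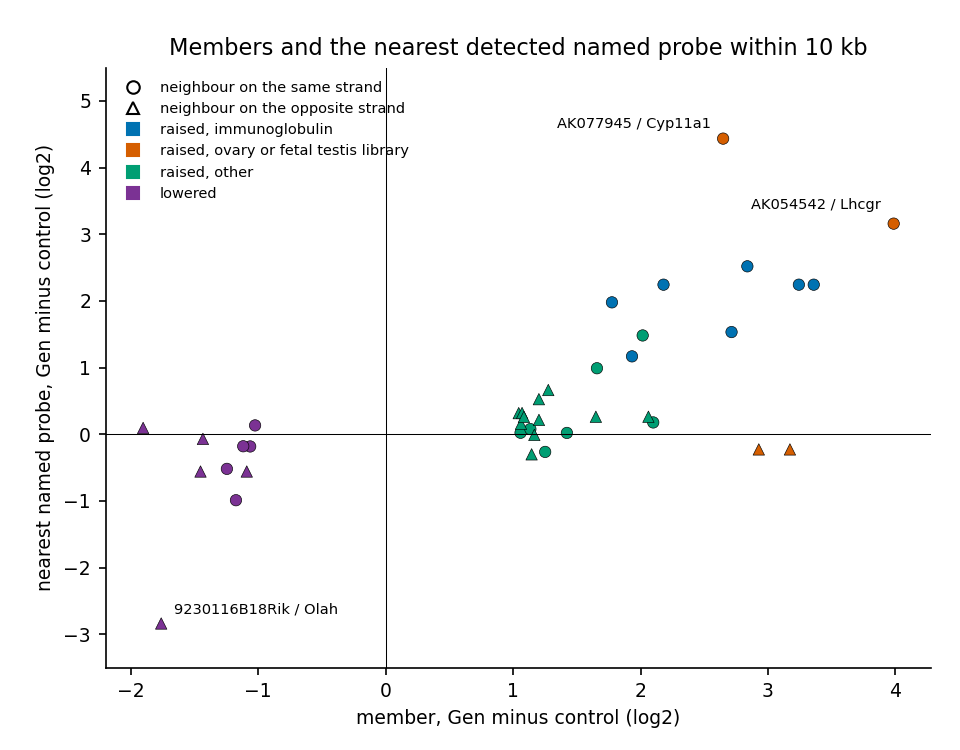
Gen minus control log2 difference of the nearest detected named probe within 10 kb (y axis) against that of the member (x axis), for 29 raised and 10 lowered members, with circles for neighbours on the same strand and triangles for the opposite strand. AK077945 beside Cyp11a1, AK054542 beside Lhcgr and the immunoglobulin members lie at the upper right, 9230116B18Rik beside Olah at the lower left, and most others near 0 on the y axis.

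Of the 139 members, 77 matched a gene of the RefSeq table, all on the chromosome that the array design gives, and 65 of them now carry a gene symbol (56 symbols). Among raised members 44 of 103 matched, 37 as coding genes and 7 as long noncoding RNAs, and among lowered members 33 of 36, 25 as coding genes, 7 as long noncoding RNAs and 1 as another type. Of the 59 raised members without a match, 50 had an accession and 9 a RIKEN clone name, and the 3 unmatched lowered members had an accession. Of 41 further probes of the members' names that were not members, 26 passed detection and 20 of these had the direction of the member. For 2310001H17Rik the member probe differed by 1.33 and its 2 other probes by -0.68 and -1.14, and for 9130230L23Rik by 1.27 and -1.67, so probes of these names disagreed. The AATAAA hexamer was in 6 raised probes (5.83%) and 0 lowered probes, against 5.34% of unnamed probes that passed detection, and the median GC content was 36.7%, 40.8% and 40.0%.

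Across all unnamed probes, and not the members alone, limma with Benjamini-Hochberg adjustment over 41173 probes was run on the same contrast. Of 4643 unnamed probes measured above background throughout the 8 arrays, 106 (2.28%) were higher and 91 (1.96%) lower in the Gen group at an adjusted p under 0.05. Among all 24920 such probes 1.93% were higher and 2.44% lower, so the shares of unnamed probes lay near the background. No probe passed without Gen replicate 1, 2 or 3, and without control replicate 1 only 2 higher and 0 lower unnamed probes passed. Without control replicates 2, 3 and 4 and without Gen replicate 4 the higher counts were 77, 65, 198 and 69, and the lower counts 50, 51, 57 and 54. At an unadjusted p under 0.05, 414 unnamed probes were higher and 298 lower with all arrays, and 329 and 296, 413 and 254, and 307 and 268 without Gen replicates 1, 2 and 3. The adjustment took in dim probes too. With the fit limited to probes that passed detection, 22 were higher and 16 lower at an adjusted p under 0.05. With the floor 1 and 2 were, and with quantile normalization 4 and 6, so the counts depended on the processing.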

How the data were processed

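Oviduct RNA of 8 biological replicates, 4 per group, was hybridised to Agilent whole mouse genome arrays with 1 dye. The authors extracted each array with Agilent Feature Extraction 9.5 and deposited the scanner output, whose processed signal is a background-adjusted linear intensity, not scaled between arrays. The deposited series table held the same intensity values. The Rosetta Resolver steps that the methods describe come after these files. Depth has no counterpart here: the number of arrays limits the precision, and 25359 to 31481 probes per array were well above background.

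The 1639 control spots and outlier spots were left out, log2 signals of a probe were averaged, and every array's 75th percentile was brought to their common mean. The rule was applied in Python 3 with pandas to 41174 probes, of which 134 lacked a value on some array. The p-values set the difference between groups against the spread among replicates within a group, which holds no variation between slides. limma 3.58.1 (R 4.3.3) fitted lmFit and eBayes without a block, and its step was tested on simulated data. The genes named are AK035470, the 10 largest rises and falls among members well above background on all 8 arrays and unsaturated, the 10 largest bounds in each direction, the 20 largest differences with a current symbol, members within 10 kb of a probe meeting the criteria, and those at the fold threshold. Others, such as 7530428D23Rik, AK054542, Sox2ot, Ecrg4, Krt79, A2ml1 and Mzb1, were chosen after their values were seen. Members were grouped by description, position and source library. The members and lists were chosen with earlier results of these data known. Names came from RefSeq tables (GRCm38.p6) by accession (42 members), symbol (11) or synonym (24). AK035470 was left out of the comparison with neighbouring probes, and 1 item is not reported here. Exon and untranslated positions were not analysed here.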

Additional observations from a re-analysis of the deposited data

Results flagged for a closer look

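In 4 of 92 groups of 4 arrays, 1 array stood apart from the other 3 by Dixon's ratio of its gap to the group's range that passed the 95% critical value, and chance gives about 5%. Control 1 was the high array for AK163997 (0.914). Gen 2 was the high array for 6330509M05Rik, now Slc9a7 (0.973). Control 2 was the high control for the immunoglobulin light chain L18942 (0.872), and control 3 for D630042P16Rik, now Ssu2 (0.856).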

How the results depend on the processing

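The raised count moved by over 1.5 times from 103 without scaling (172), with normexp (36), with the floor (50), at a fold of at least 1.5 (242) or 3 (44), and with detection on all 8 arrays required (31), and ran from 114 to 233 with 1 array left out. The lowered count moved from 36 without scaling (10), at a fold of at least 1.5 (92) or 3 (13) and without the filter on detection (2613, where dim probes read lower on the Gen arrays), and ran from 34 to 61 with 1 array left out. Leaving out scaling moved the median difference of detected probes to 0.26. All 139 members kept their direction except 4 (AV231787, AV344830, D030022P07Rik and AK076363) with normexp, and 19 were at the floor in both groups. The limma counts of unnamed probes (106 higher, 91 lower) became 4 and 6 with quantile normalization, 41 and 2 without scaling, 17 and 18 with normexp, 1 and 2 with the floor, and 22 and 16 with dim probes left out. Intensity-trended robust eBayes gave 143 and 129. They ran from 0 to 198 and from 0 to 57 with 1 array left out. The methods' t-test gave 0 after adjustment (425 and 341 unadjusted). Same-number deviations correlated at -0.079, 0.105, -0.021 and -0.183, against -0.229 to 0.383 for arrays of unlike numbers. With 4 arrays per group these values cannot decide whether the samples were paired. The study compared Gen mice with control littermates, but the labels do not match arrays by litter. With the replicate number as a block limma gave 0 (298 and 214 unadjusted). The causes were not tested. Of 644 recomputed differences of 46 named members, 605 moved by less than 1 SD and 0 reversed; the others moved with the floor (17), normexp (21) or no scaling (1).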
